A study of Mus musculus with 6 samples.

Results

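The genes described here are the digestive enzymes and the other secretory proteins of the pancreatic acinar cell, 39 genes chosen by name: proteases, lipases, ribonuclease and amylase, proteins of the zymogen granule, secreted inhibitors, the Reg family, and a few genes of the secretory machinery. A gene was included where 1 row of the array table carried its symbol and no other symbol, which held for 36 of the 39 genes, out of 19938 genes tested in all. Prss1, Spink3 and Klk1 had no such row. RNA was measured in whole pancreata of mouse embryos at E13.5, on 6 Affymetrix Mouse Gene 1.0 ST arrays. The mutant group was 3 pools of *Pdx1-Cre; Ctnnb1tm1Mmt/+* pancreata, in which the Cre recombinase driven by the *Pdx1* promoter removes exon 3 from 1 copy of *Ctnnb1*, the gene of β-catenin, in the pancreatic primordium. The protein made without that exon escapes degradation, so that the canonical Wnt pathway stays active. The paper also reports cells in mutant pancreata with normal levels of pancreatic transcription factors and no nuclear β-catenin. For similar cells in newborns it names inefficient excision as the likely reason. Mutant pools may thus hold RNA of cells without the activated protein. The control group was 3 pools of pancreata whose genotype is labelled wild type, and neither the labels nor the methods say whether these embryos carried *Pdx1-Cre* or the floxed allele alone. Each pool held 3 pancreata of genotyped embryos and is labelled as 1 biological replicate, and Cre acts only in cells that have expressed *Pdx1*, so mesenchyme, vessels, nerves and blood in the same pools keep both intact *Ctnnb1* copies.

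The acinar cell makes digestive enzymes as inactive precursors, packs them into zymogen granules and empties these into the pancreatic duct when hormones such as cholecystokinin call for it. In the embryo the acinar lineage comes from the tips of the branching epithelium, where Cpa1 and a few other enzymes are made well before birth, while many other enzymes start late and some only at weaning. Their genes share a regulator, the PTF1 complex of Ptf1a with Rbpjl or Rbpj, which binds an E-box beside a TC-box, and Nr5a2 acts with it.

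All values are log2 array values, so a difference of 1 is a doubling of the signal. Values of different genes come from different probes and are not set against each other as amounts of RNA. The array medians lay between 6.3699 and 6.468, pools of 1 genotype correlated at 0.993 to 0.997 and pools of different genotype at 0.973 to 0.979. Of the genes that define the tissue, *Pdx1* averaged 5.77 ± 0.16 in mutant pools and 9.93 ± 0.06 in control pools (SD, n = 3 each), and *Nkx6-1* 7.46 ± 0.07 in mutant pools and 9.98 ± 0.19 in control pools. *Sox9* averaged 11.12 ± 0.10 in mutant pools and 11.45 ± 0.25 in control pools (limma, adjusted p = 0.14). *Ctnnb1* averaged 12.55 ± 0.16 in mutant pools and 12.28 ± 0.12 in control pools (limma, adjusted p = 0.148), and its row does not measure whether exon 3 was lost.

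The promoters shown are those of 5 genes above the median control level of all genes, and of *Reg2*, a neighbour of *Reg1* below it. They are shown because they hold the sequence elements for which acinar promoters are known. Each run is the 250 bases before the transcription start given by RefSeq on GRCm38.p6, written 5′ to 3′ along the gene. Capitals mark an E-box (CANNTG) and a TC-box (TTTCCC or TGGGAA) that lie within 25 bases of each other on either strand, and a TATA box (TATAAA, either strand). The distance of 25 bases was chosen after the sequences had been seen. The windows lie at chr6:30638968-30639217 on the plus strand for *Cpa1*, chr8:111691011-111691260 on the minus strand for *Ctrb1*, chr2:28563404-28563653 on the minus strand for *Cel*, chr15:100687921-100688170 on the minus strand for *Cela1*, chr6:78425733-78425982 on the plus strand for *Reg1* and chr6:78404905-78405154 on the plus strand for *Reg2*.
Cpa1: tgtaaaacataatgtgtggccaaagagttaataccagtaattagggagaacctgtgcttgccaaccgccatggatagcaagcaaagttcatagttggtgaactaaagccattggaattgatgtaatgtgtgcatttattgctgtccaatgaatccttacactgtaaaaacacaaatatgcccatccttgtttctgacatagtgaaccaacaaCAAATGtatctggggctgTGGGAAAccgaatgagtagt
Ctrb1: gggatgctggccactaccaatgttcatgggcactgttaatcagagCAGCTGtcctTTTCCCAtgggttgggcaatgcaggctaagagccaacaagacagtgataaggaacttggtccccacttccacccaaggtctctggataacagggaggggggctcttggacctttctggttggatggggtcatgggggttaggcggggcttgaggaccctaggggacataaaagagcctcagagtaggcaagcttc
Cel: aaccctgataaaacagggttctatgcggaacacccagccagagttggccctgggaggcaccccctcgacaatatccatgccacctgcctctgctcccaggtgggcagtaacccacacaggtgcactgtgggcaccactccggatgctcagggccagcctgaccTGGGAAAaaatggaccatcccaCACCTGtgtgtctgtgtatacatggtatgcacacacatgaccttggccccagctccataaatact
Cela1: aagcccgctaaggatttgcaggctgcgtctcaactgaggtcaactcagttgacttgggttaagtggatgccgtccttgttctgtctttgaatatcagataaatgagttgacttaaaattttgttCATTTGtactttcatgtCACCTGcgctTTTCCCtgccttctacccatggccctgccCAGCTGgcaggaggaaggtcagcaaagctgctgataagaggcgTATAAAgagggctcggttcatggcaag
Reg1: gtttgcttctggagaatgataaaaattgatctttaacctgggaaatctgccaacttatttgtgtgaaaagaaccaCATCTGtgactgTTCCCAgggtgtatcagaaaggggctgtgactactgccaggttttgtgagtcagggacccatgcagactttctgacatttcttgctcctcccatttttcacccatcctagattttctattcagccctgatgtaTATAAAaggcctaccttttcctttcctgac
Reg2: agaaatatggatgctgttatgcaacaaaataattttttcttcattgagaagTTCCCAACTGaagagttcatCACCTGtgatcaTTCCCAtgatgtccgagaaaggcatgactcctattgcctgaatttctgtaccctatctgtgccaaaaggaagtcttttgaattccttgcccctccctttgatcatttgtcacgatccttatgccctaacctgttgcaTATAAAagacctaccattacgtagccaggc

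A promoter was found in the RefSeq table for 29 of the 36 genes. On genes are those with a control mean above the median of all genes, and off genes are the others, as set out below. *Clps* and *Cckar* were the on genes without a promoter. An E-box near a TC-box was present in 6 of the 9 promoters of genes that were on in controls, those of *Cpa1*, *Ctrb1*, *Cel*, *Cela1*, *Reg1* and *Pnliprp1*. The same pair was present in 4 of the 20 promoters of genes that were off in controls, those of *Aqp12*, *Reg2*, *Reg3b* and *Reg3d*, and in 8.12% of 32851 promoters of mouse genes. *Reg1* and *Reg2* hold the pair at a similar place, an E-box followed by TTCCCA, with a TATA box near the start in both, although *Reg1* was on in controls and *Reg2* was off. Searched alone on both strands, CANNTG was present in 7 of 9 on promoters, 17 of 20 off promoters and 66.2% of all promoters. TTTCCC was present in 5 of 9 on promoters, 5 of 20 off promoters and 21.9% of all promoters, and TGGGAA, which overlaps it in the run TGGGAAA, in 6 of 9, 11 of 20 and 21.6%. Of the single E-boxes, CACCTG was present in 3 of 9 on promoters, 14 of 20 off promoters and 17.2% of all promoters, and CATCTG in 1 of 9, 2 of 20 and 14.4%. TATAAA was present in 3 of 9, 7 of 20 and 12.4%. The site AAGGTCA, to which Nr5a2 is known to bind, was present in the promoters of *Cel* and *Cela1*, in 0 of 20 off promoters and in 4.08% of all promoters. These are matches of letters and were not tested. The counts of the pair also rest on a distance chosen after the sequences had been seen, so they only describe these promoters.

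Mutant pancreata had less RNA of each of the 11 genes whose control value lay above the median of all genes. Most genes with a control value below it did not pass the test. A gene was called on where its mean over the control pools lay above 7.13, and off otherwise. That level is the median of this mean over all genes tested, not a detection limit. The words name only the side on which a gene lay, and an off gene may still be expressed in controls. Of the 36 genes, 11 were on and 25 were off. All 11 on genes were lower in mutant pools (limma, adjusted p under 0.05 over all genes), by 1.87-fold for *Rab3d* to 41.7-fold for *Ctrb1*, and in each of them all mutant pools lay below all control pools. Of the 25 off genes, 4 fell, 2 rose and 19 were uncalled. In all, 15 of 36 genes were lower, where 7.53% of all genes were, and 2 were higher, where 6.59% of all genes were. All mutant pools lay below all control pools in 16 of the 36 genes, against 13.9% of all genes, and above them in 3 of the 36, against 16.9% of all genes.

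The median change was -3.86 over the 11 on genes and 0.02 over all genes that were on in controls, of which 11.0% were lower. Over the 25 off genes it was -0.14, against 0.04 over all genes off in controls, of which 4.09% were lower and 5.85% higher. The split rests on control values that also enter the comparison, and a gene near its floor in controls has little room to fall, so the 2 groups describe the genes and were not set against each other by a test. *Cela1* at 7.49 and *Rab3d* at 7.68 were the on genes nearest to the threshold, and *Cela2a* at 6.84 and *Pnliprp2* at 6.66 the off genes nearest to it. In these whole pancreata, fewer acinar cells and less RNA in each acinar cell cannot be told apart.

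**Figure D1:**
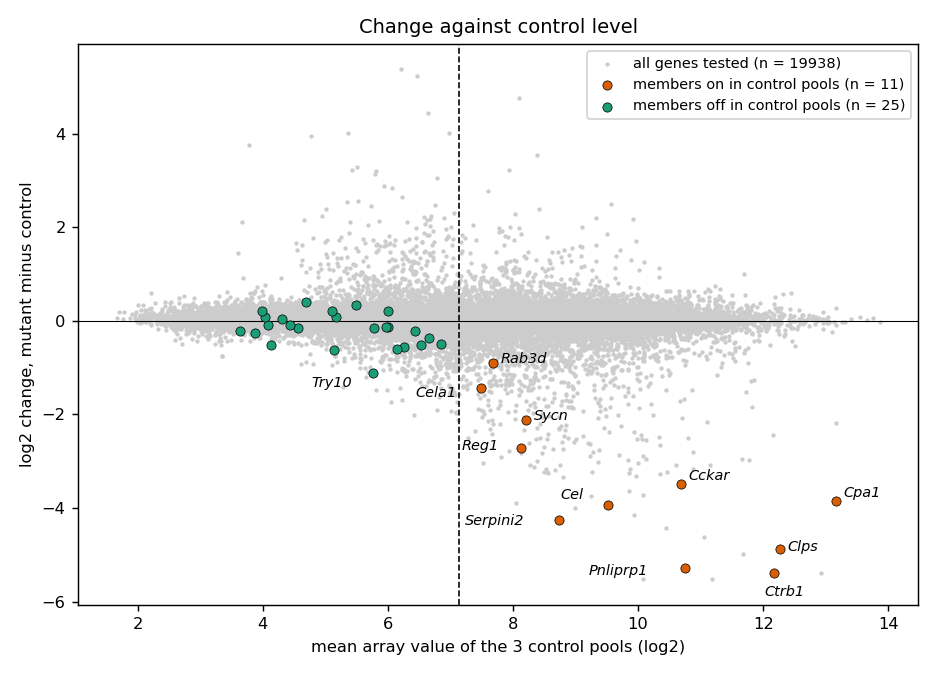
Change between genotypes (vertical axis, log2, mutant minus control) against the mean array value of the 3 control pools (horizontal axis, log2), with all 19938 genes in grey, the 11 on genes in orange, the 25 off genes in green and the threshold of 7.13 as a dashed line. Every orange point lies below 0, from -0.91 for Rab3d to -5.38 for Ctrb1, while the green points lie between -1.11 and 0.40.

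Among the proteases, *Ctrb1*, which encodes chymotrypsinogen B1, changed most. It measured 6.93, 6.91 and 6.53 in the mutant pools, against 11.67, 13.08 and 11.78 in the control pools. No mutant pool came near a control pool, and the second control pool stood above the others. The change was -5.38 ± 0.31 (SE), rank 4 among the decreases of all genes (limma, adjusted p = 2.75e-06). *Cpa1*, which encodes carboxypeptidase A1 and marks the tip cells, measured 9.52, 9.36 and 9.05 in the mutant pools, against 13.10, 13.29 and 13.11 in the control pools. The control pools agreed closely for this gene, and the change of -3.86 ± 0.13 (limma, adjusted p = 1.42e-07) was 14.5-fold.

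*Cela1*, a gene of the pancreatic elastase family, was lower in mutant pools by 2.70-fold, at 6.05 ± 0.14 in mutant pools and 7.49 ± 0.25 in control pools. *Cela2a*, another elastase, measured 6.29, 6.52 and 6.27 in the mutant pools, against 6.69, 7.16 and 6.68 in the control pools. The groups did not overlap, but the nearest pools were only a small step apart, and the change of -0.49 ± 0.14 passed narrowly (limma, adjusted p = 0.047). It no longer passed when mutant replicate 1 or 3 or any 1 of the control pools was left out (adjusted p = 0.0529 to 0.149), with arrays centred on their medians (0.0629) or on housekeeping genes (0.0571), or when rows without a single symbol entered the fit as well (0.151). The other proteases were off in controls and did not pass the test: chymotrypsin C (*Ctrc*, change -0.51, limma adjusted p = 0.0672), the elastase *Cela3b* (-0.15), chymotrypsin-like *Ctrl* (-0.14) and carboxypeptidase B1 (*Cpb1*, 0.21). *Ctrc* passed without mutant replicate 2 (-0.63), without control replicate 1 (-0.67) and with array weights (-0.42).

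The trypsins, the proteases that activate the other precursors once cleaved in the gut, were all off in controls. *Try10* measured 4.92, 4.29 and 4.77 in the mutant pools, against 5.27, 6.60 and 5.43 in the control pools. The groups did not overlap, and the second control pool stood far above the others. The change was -1.11 ± 0.31 (limma, adjusted p = 0.0392). It was -0.69 without that pool (adjusted p = 0.0344), and it did not pass when any 1 of the mutant pools or control replicate 3 was left out (adjusted p = 0.0528 to 0.116). Nor did it pass with a trended and robust prior (limma, adjusted p = 0.0791) or when rows without a single symbol entered the fit as well (0.156). *Try4* measured 3.41, 3.88 and 3.55 in the mutant pools, against 4.15, 4.10 and 4.12 in the control pools. These control values were tightly grouped above all mutant values, with a change of -0.51 ± 0.12 (limma, adjusted p = 0.0195), which did not pass without mutant replicate 1 or 3 or control replicate 1 or 3 (adjusted p = 0.0615 to 0.0898).

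*Try5* measured 5.45, 5.82 and 5.83 in the mutant pools, against 5.99, 6.65 and 6.15 in the control pools, so that the groups did not overlap but the change of -0.56 ± 0.17 did not pass (limma, adjusted p = 0.0604). *Prss2*, anionic trypsinogen, measured 5.35, 5.83 and 5.43 in the mutant pools, against 5.76, 6.18 and 6.51 in the control pools, with overlap and a change of -0.61 (limma, adjusted p = 0.0624). *Prss3* measured 3.82, 4.13 and 3.998 in the mutant pools, against 3.83, 4.53 and 3.88 in the control pools, with overlap and a change of -0.10. All 5 trypsins had a lower mean in mutant pools, and 2 of 5 passed. *Try5* passed without control replicate 1 (-0.70, limma adjusted p = 0.0383), with a trended and robust prior (0.0442) and with array weights (0.00404). *Prss2* passed without that pool (-0.81, limma adjusted p = 0.0157), without mutant replicate 2 (-0.76, 0.0306), with quantile normalization (0.0477), with the trended and robust prior (0.0466) and with array weights (0.00688). *Prss3* turned to a mean higher in mutant pools, by 0.13, without control replicate 2. *Try4*, *Try5*, *Try10* and *Prss3* follow each other on chromosome 6 with 0 protein-coding genes between neighbours, and 2 such genes separate *Prss3* from *Prss1* and *Prss2*. Trypsin genes are near copies of each other, and probes of 1 row may read RNA of another, so each of these values is uncertain as to which trypsin it measures.

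The genes of lipid digestion were either strongly lower or off. *Pnliprp1*, which encodes pancreatic lipase related protein 1, measured 5.63, 5.56 and 5.24 in the mutant pools, against 10.16, 11.45 and 10.66 in the control pools, a change of -5.28 ± 0.27 (limma, adjusted p = 1.19e-06). *Clps*, which encodes colipase, the cofactor of pancreatic lipase, measured 7.69, 7.39 and 7.11 in the mutant pools, against 12.06, 12.67 and 12.07 in the control pools, a change of -4.87 ± 0.19 (limma, adjusted p = 2.61e-07). *Cel*, which encodes the bile salt dependent carboxyl ester lipase, measured 5.63, 5.76 and 5.34 in the mutant pools, against 9.12, 10.27 and 9.15 in the control pools, a change of -3.93 ± 0.27 (limma, adjusted p = 7.43e-06). In all 3 genes every mutant pool lay far below every control pool, and the second control pool was the highest. *Pnliprp2*, the gene next to *Pnliprp1* on chromosome 19, was off, at 6.29 ± 0.24 in mutant pools and 6.66 ± 0.44 in control pools with overlap. The phospholipase gene *Pla2g1b* was off too, at 6.20 ± 0.15 in mutant pools and 6.43 ± 0.24 in control pools, and neither passed the test (limma, adjusted p = 0.322 and 0.351).

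Amylase and ribonuclease moved in opposite directions, both at low values. *Amy1*, an amylase gene best known from the salivary gland and liver of the mouse, measured 4.51, 4.43 and 4.58 in the mutant pools, against 5.02, 5.08 and 5.30 in the control pools. The groups were apart, with a change of -0.63 ± 0.10 (limma, adjusted p = 0.0023), and among the 4 off genes that were lower it was the one that also passed in every fit with 1 pool left out. The pancreatic amylase genes are close copies of it, so its probes may read them too. *Rnase1*, the secreted pancreatic ribonuclease, measured 5.94, 5.81 and 5.74 in the mutant pools, against 5.52, 5.52 and 5.42 in the control pools. All mutant values lay above the control values, and the change of 0.34 ± 0.09 passed (limma, adjusted p = 0.0376). It did not pass when mutant replicate 1 or 2 or any 1 of the control pools was left out (adjusted p = 0.0575 to 0.176).

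Of the granule proteins and inhibitors, *Serpini2*, a serpin secreted by the pancreas, measured 4.71, 4.34 and 4.34 in the mutant pools, against 7.97, 9.47 and 8.75 in the control pools. The control pools were spread widely, yet the lowest was far above the highest mutant pool, and the change was -4.27 ± 0.30 (limma, adjusted p = 9.27e-06). *Sycn*, which encodes syncollin, a protein inside the zymogen granule, was lower by 4.35-fold, at 6.09 ± 0.19 in mutant pools and 8.21 ± 0.36 in control pools. The remaining granule genes were off and did not pass the test: *Gp2*, the main glycoprotein of the granule membrane (change -0.14), the granule lectin *Zg16* (-0.09) and *Cuzd1*, another granule membrane protein (0.09). For *Gp2* the sign turned without control replicate 2 and for *Cuzd1* without mutant replicate 2.

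The Reg genes encode small secreted lectin-like proteins, made in pancreas and gut. *Reg1* was the one Reg gene that was on in controls, and it measured 5.32, 5.65 and 5.26 in the mutant pools, against 7.93, 8.32 and 8.13 in the control pools. The pools of each genotype lay close together, with a change of -2.71 ± 0.14 (limma, adjusted p = 1.08e-06), or 6.56-fold. *Reg4*, best known from cells of the gut epithelium, measured 4.95, 5.25 and 5.07 in the mutant pools, against 4.70, 4.67 and 4.71 in the control pools. Each mutant pool was above each control pool, with a change of 0.40 ± 0.10 (limma, adjusted p = 0.0258). It did not pass when mutant replicate 2 or 3 or any 1 of the control pools was left out (adjusted p = 0.0595 to 0.0790).

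The other 5 Reg genes were off and did not pass the test. *Reg2* measured 3.53, 3.66 and 3.63 in the mutant pools, against 3.97, 3.65 and 4.002 in the control pools, with a change of -0.27 that passed without control replicate 2 (-0.38, limma adjusted p = 0.0393) and with array weights (-0.37, adjusted p = 0.00714). *Reg3d* measured 3.43, 3.36 and 3.46 in the mutant pools, against 3.64, 3.83 and 3.43 in the control pools. In both genes 1 control pool lay within the mutant values. *Reg3a* measured 4.23, 4.55 and 4.22 in the mutant pools, against 4.47, 4.32 and 4.11 in the control pools. *Reg3b*, a bactericidal lectin of the gut, measured 4.15, 4.15 and 4.02 in the mutant pools, against 4.12, 4.05 and 3.94 in the control pools. *Reg3g*, a lectin of the same kind, measured 3.99, 4.70 and 3.94 in the mutant pools, against 3.94, 4.26 and 3.77 in the control pools. These 3 all overlapped between genotypes, with changes of 0.03, 0.07 and 0.22, and *Reg3a* was at -0.01 with quantile normalization. *Reg3b*, *Reg3d*, *Reg3a*, *Reg2*, *Reg1* and *Reg3g* stand in that order on chromosome 6 with 0 protein-coding genes between neighbours. The 1 gene of this cluster that was on in controls, *Reg1*, thus lay between *Reg2* and *Reg3g*. Reg genes are similar in sequence and may share probes.

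In the secretory machinery, *Cckar*, the receptor through which cholecystokinin stimulates enzyme release, was lower by 11.3-fold, at 7.19 ± 0.22 in mutant pools and 10.68 ± 0.31 in control pools (limma, adjusted p = 6.91e-07). *Rab3d*, a GTPase of secretory granules in acinar cells and other secretory cells, showed the smallest change among the on genes, at 6.77 ± 0.10 in mutant pools and 7.68 ± 0.04 in control pools, a change of -0.91 ± 0.09 (limma, adjusted p = 0.000118). *Erp27*, a protein of the endoplasmic reticulum that is abundant in the adult pancreas, was off and overlapped, with a change of -0.14 that turned to 0.02 without control replicate 2. *Aqp12*, an aquaporin inside acinar cells, was off as well. Its mutant values of 6.26, 6.29 and 6.06 lay above its control values of 5.999, 5.97 and 6.01 without passing the test (0.21, limma adjusted p = 0.204), though it passed with array weights (0.25, adjusted p = 0.0264).

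**Figure D2:**
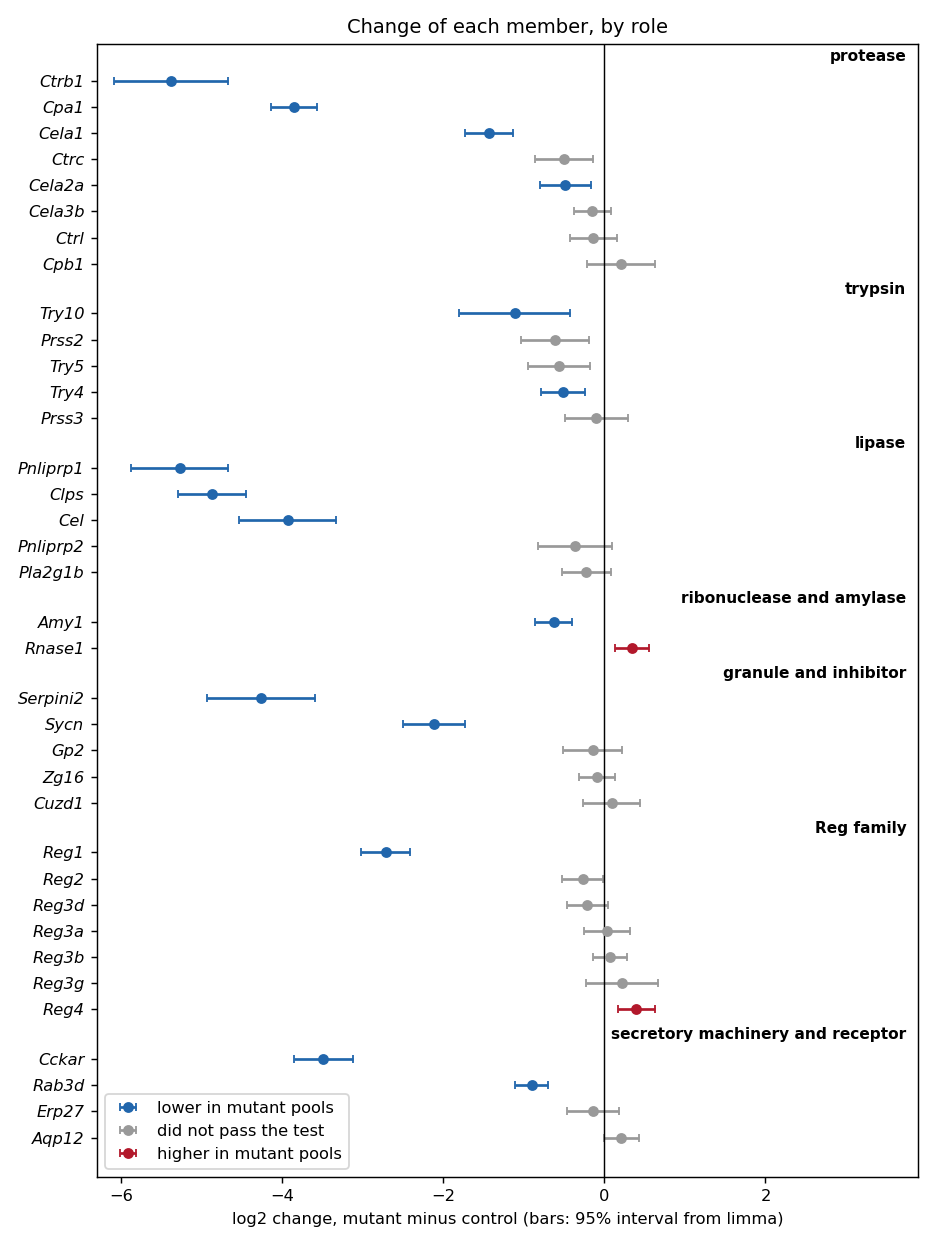
Change of each of the 36 genes (log2, mutant minus control) with its 95% interval from limma, grouped by role; blue genes were lower, red genes higher and grey genes did not pass the test. The largest decreases are those of Ctrb1 at -5.38 and Pnliprp1 at -5.28, and the 2 red points are Reg4 at 0.40 and Rnase1 at 0.34.

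The pool values of all 36 genes are plotted side by side. Without detection calls it is not known which of the low values, in either genotype, are above background.

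**Figure D3:**
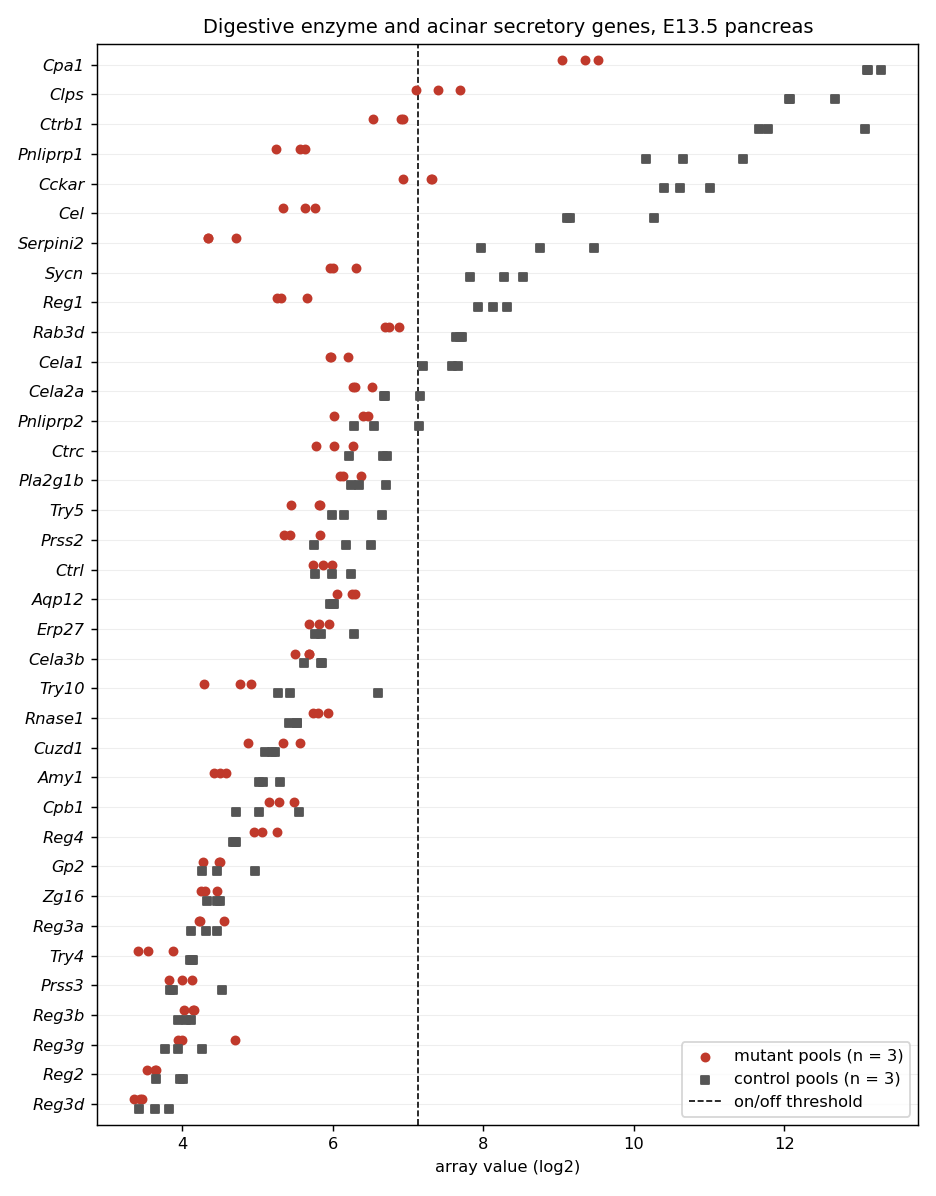
Array value (horizontal axis, log2) of each of the 36 genes in every pool, mutant pools as red circles and control pools as grey squares, with genes ordered by their control mean and the threshold of 7.13 as a dashed line. For the upper 11 genes all circles lie left of all squares, and below them circles and squares overlap in most genes.

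The on genes also differed between pools of 1 genotype, mostly in the same direction. Control replicate 2 was the highest control pool in 10 of the 11 on genes and in 24 of all 36, where it was the highest for 38.8% of all genes. The exception among the on genes was *Rab3d*. The excess of that pool over the mean of the other controls had a median of 0.50 over the on genes and 0.01 over all genes. It was 1.36 for *Ctrb1*, 1.25 for *Try10*, 1.13 for *Cel*, 1.11 for *Serpini2* and 1.04 for *Pnliprp1*, but 0.18 for *Cpa1*. An excess of 0.5 or more was seen in 12 of the 36 genes and in 425 of all genes. The SD over control pools was 0.65 to 0.78 for *Ctrb1*, *Serpini2*, *Cel* and *Pnliprp1* and 0.11 for *Cpa1*, so the change of *Cpa1* was the more precisely measured.

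Over all genes, most of the 20 largest excesses of the same pool were those of microRNA genes, led by *Mir329* at 2.49. The islet hormone gene *Iapp* had rank 11, at 1.51, and the acinar transcription factor gene *Bhlha15* rank 15, at 1.42. The Y-linked *Uty* had rank 6. It measured 7.78, 7.38 and 7.98 in the mutant pools, against 3.69, 7.54 and 7.07 in the control pools, low in control replicate 1 alone. The pools thus differed in more than acinar genes, and their part in the spread of the enzymes was not tested. Without control replicate 2 all 11 on genes were still lower, with *Ctrb1* at -4.93, *Pnliprp1* at -4.93, *Serpini2* at -3.90 and *Cel* at -3.55. Among mutant pools, replicate 3 was the lowest in 10 of the 11 on genes, where it was the lowest for 22.5% of all genes on in controls, and replicate 1 was the highest in 7 of the 11, where it was the highest for 30.5% of all genes on in controls.

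**Figure D4:**
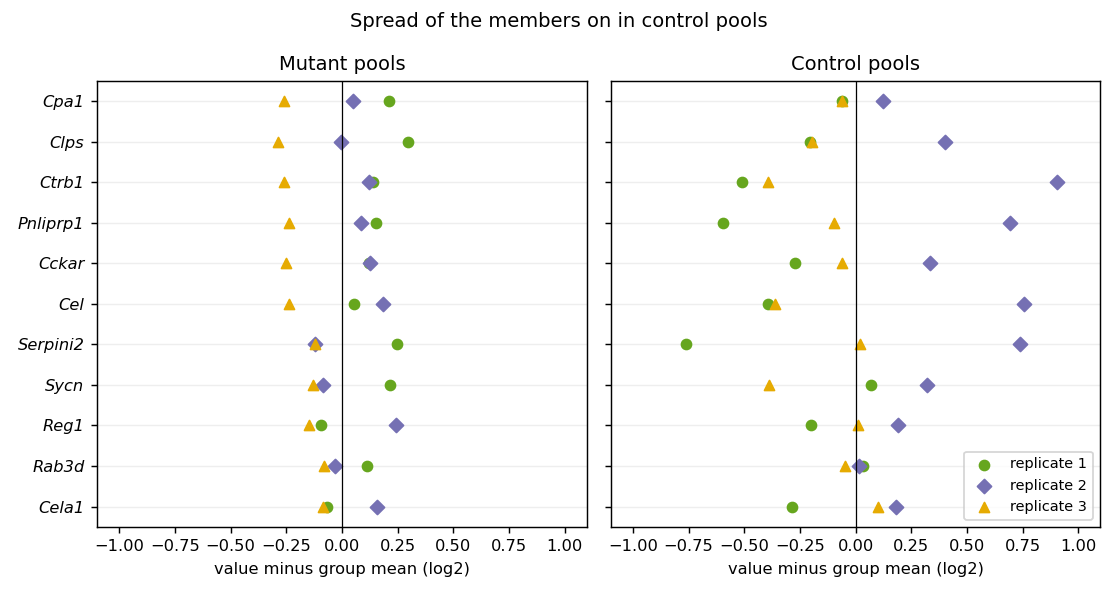
Value of each pool minus the mean of its genotype (horizontal axes, log2) for the 11 on genes, mutant pools on the left and control pools on the right, with symbols for the replicate number. Mutant replicate 3 is the lowest mutant pool in 10 genes, and control replicate 2 is the highest control pool in 10 genes, by 1.36 over the mean of the others for Ctrb1.

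Most genes in a list of transcription factors of acinar cells were lower too. The list includes factors that are not confined to acinar cells, such as *Hnf4a*, *Foxa2* and *Mnx1*. Of the 11 genes tested, the test called 7 lower and 0 higher and left 4 uncalled, with a median change of -1.47. Over all genes, 7.53% were lower and 6.59% higher. *Nr5a2*, which acts with PTF1 at enzyme genes, averaged 7.08 ± 0.17 in mutant pools and 10.35 ± 0.08 in control pools, a change of -3.27 (limma, adjusted p = 1.42e-07). *Ptf1a* averaged 5.32 ± 0.21 in mutant pools and 7.63 ± 0.45 in control pools (-2.30), and its partner *Rbpjl* 6.50 ± 0.25 in mutant pools and 8.83 ± 0.67 in control pools (-2.33). *Bhlha15*, which builds up the secretory apparatus of acinar cells, was at -2.69, *Hnf4a* at -2.29 and *Gata4* at -1.47. *Mnx1*, with a low control mean of 5.72, was at -0.80. *Rbpj*, the partner of Ptf1a that most cells make, was at 0.12, *Foxa2* at 0.11, *Gata6* at -0.25 and *Xbp1*, a regulator of the secretory endoplasmic reticulum, at -0.36, and none of these 4 passed the test (limma, adjusted p = 0.101 to 0.595).

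Among 15 other genes known from acinar cells the test called 5 lower and 1 higher and left 9 uncalled, with a median change of 0.08. *Nupr1*, a stress response gene high in pancreas, changed by -2.19, *Prss8*, a membrane protease of epithelia, by -2.02 and *Tmed6*, of a family of cargo proteins of the secretory pathway, by -1.79. Of 33 genes of the endoplasmic reticulum that insert, fold or move secreted proteins, 1 was lower (*Dnajc3*, -0.40), 1 was higher (*Kdelr3*, 0.79) and 31 did not pass, with a median change of -0.01.

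Several lists of marker genes differed between genotypes too, some lower and others higher in mutant pools, while others had overlapping mean levels. Over all genes, the test called 7.53% lower and 6.59% higher. Acinar cells are themselves epithelial, so the epithelial list covers them as well, while the other lists were chosen for other cells. *Krt19* and *Prom1* stand in both the epithelial and the trunk and duct lists. *Cftr* stands in the trunk and duct list and among the other genes known from acinar cells, so these lists are not fully separate. Of 23 epithelial genes the test called 18 lower and 1 higher and left 4 uncalled, with a median change of -0.78, and their mean level was 8.597 to 8.68 in mutant pools and 9.30 to 9.48 in control pools, with *Krt8* at -1.84 and *Cdh1* at -1.68. Of 14 trunk and duct genes 8 were lower and 6 did not pass (median -0.61, mean level 7.66 to 7.76 in mutant pools and 8.74 to 8.93 in control pools), and of 21 endocrine genes 19 fell, 1 rose and 1 was uncalled (median -2.61, mean level 6.61 to 6.67 in mutant pools and 8.71 to 9.18 in control pools). Of 24 mesenchymal genes 4 fell, 11 rose and 9 were uncalled (median 0.35, mean level 9.95 to 10.13 in mutant pools and 9.59 to 9.66 in control pools). The part of these cells in the changes of the enzyme genes was not tested.

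A liver list had 6 of 14 genes lower and 8 that did not pass, with a mean level of 6.26 to 6.41 in mutant pools and 7.73 to 7.87 in control pools. The drop lay in *Serpina6* (-5.39), *Ambp* (-4.97) and *Vtn* (-4.42) among others, while the liver markers *Alb* (6.96 in mutant pools and 7.46 in control pools) and *Afp* (7.69 in mutant pools and 7.82 in control pools) did not pass the test. Neural and glial genes were lower in 9 of 11, with a mean level of 6.65 to 6.84 in mutant pools and 7.65 to 7.73 in control pools. Genes of leukocytes and mast cells were higher in 5 of 16 (mean level 7.41 to 7.83 in mutant pools and 6.87 to 7.14 in control pools) and endothelial genes in 3 of 12 (mean level 9.07 to 9.26 in mutant pools and 8.76 to 8.89 in control pools). Of 8 erythroid genes 1 was lower and 2 were higher (mean level 7.71 to 8.003 in mutant pools and 7.77 to 8.07 in control pools). Of 28 genes of stomach and intestinal epithelium 7 were lower and 3 were higher (mean level 5.90 to 6.09 in mutant pools and 5.96 to 6.08 in control pools). The 3 that were higher were the stem cell marker *Lgr5* (4.44), the intestinal transcription factor gene *Cdx2* (0.97) and *Sox2* (0.69), a transcription factor gene of the stomach, and *Anpep*, a peptidase of the intestinal brush border, was among those lower (-2.07). Of 12 housekeeping genes 1 was lower and 2 were higher, with a mean level of 11.32 to 11.40 in mutant pools and 11.33 to 11.37 in control pools. The mean levels of the erythroid, the stomach and intestinal, and the housekeeping lists thus overlapped between genotypes.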

How the data were processed

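RNA of 6 pools, 3 of Pdx1-Cre; Ctnnb1tm1Mmt/+ and 3 of control pancreata at E13.5 (3 pancreata each), was hybridised to Affymetrix Mouse Gene 1.0 ST arrays. The deposited values are log2 expression values, 1 row per transcript cluster. Their array medians are close to each other. How background was corrected and probes were summarized and normalized is stated neither in the labels nor in the methods. Groups and replicate numbers were taken from the sample labels. Rows were named through the platform annotation: of 35556 rows, 21789 carried a single symbol, 1621 more than 1 and 12146 no symbol. Rows with 1 symbol were used, and for the 999 genes with several rows the one with the highest mean over the 6 arrays, which left 19938 genes. No detection calls were used, so low values may lie at background. The number of arrays limits the precision.

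Mutant pools were compared with control pools with the lmFit and eBayes functions of limma 3.58.1 (R 4.3.3, no covariate) over all genes, with Benjamini-Hochberg adjustment and a threshold of 0.05. The procedure was checked on simulated data. An exact permutation test of 3 pools against 3 cannot go below 0.1 and was not used. The genes and all lists were chosen with earlier results of these data known. Pool values are given for the 6 largest decreases and up to 3 largest increases that passed the test, all Reg genes and trypsins, and any other off gene that passed. The other genes are given by their means or changes, *Aqp12* also by pool. Of each list up to 3 genes are named, the acinar transcription factors all, and *Alb*, *Afp*, *Cdx2* and *Sox2* were added after their values were seen. Promoters were taken from RefSeq (GRCm38.p6) and searched with Python 3.11.15. The identity between proteins of a family, which was planned, was not computed. Alternatives were other centrings, quantile normalization, filters on rows and genes, other priors and thresholds, array weights, a replicate block and leaving out each pool. Correlations between deviations of same-numbered mutant and control pools lay within the range of those of other-numbered pools.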

Additional observations from a re-analysis of the deposited data

How the results depend on the processing

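All 11 on genes were lower in every fit that left out 1 pool and under every other centring, normalization, prior and weighting. With a threshold at the 75th percentile of control means 6 genes counted as on, and all of them were lower. The off genes depended more on the processing. The 4 that were lower became 1 with all rows in the fit, 1 at an adjusted p under 0.01, and 1 with a 2-fold minimum. They became 8 with array weights and 1 to 5 without 1 pool. With the stricter on threshold 9 off genes were lower, and 7 with on set by all 6 arrays, only because some on genes then counted as off. The fit of genes above the median level held none of the off genes, so it says nothing about them. The 2 that were higher became 0 with the replicate block, with all rows, at 0.01 and at 2-fold, 1 with housekeeping centring and 0 to 1 without 1 pool. Of the 36 genes, only 8 entered the fit of genes above the median level, and all 8 were lower there. The median change over those 8 was -3.90, where it was -0.43 over all 36 in the main fit. Without 1 pool 12 to 16 of the 36 were lower.

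Over all genes, 1502 were lower and 1313 higher. Array weights gave 2422 lower and 3025 higher, a 2-fold minimum 417 lower and 260 higher, all rows 751 higher, an adjusted p under 0.01 723 higher, and leaving out 1 pool 843 to 1328 higher. With the replicate block 15 of the 36 genes were lower and 0 higher: *Try10* (adjusted p = 0.105), *Rnase1* (0.0648) and *Reg4* (0.0589) no longer passed by limma, and *Try5* passed (0.0300). Deviations of same-numbered pools correlated at 0.01, -0.15 and -0.05, and those of other-numbered pools at -0.19 to 0.19. With so few pools these values cannot decide whether same-numbered pools were paired, and the labels do not say. Among genes that did not pass, the sign of the change turned for *Erp27* (0.017 without control replicate 2 and 0.038 with array weights, range without 1 pool -0.243 to 0.017), *Cuzd1* (-0.064 without mutant replicate 2, range -0.064 to 0.279), *Gp2* (0.055 without control replicate 2, range -0.293 to 0.055), *Prss3* (0.126 without control replicate 2, range -0.223 to 0.126), *Reg3g* (-0.026 without mutant replicate 2, range -0.026 to 0.354) and *Reg3a* (-0.074 without mutant replicate 2, -0.059 without control replicate 3, -0.011 with quantile normalization and -0.098 with array weights, range -0.074 to 0.117). Other centrings moved the median of all genes by 0.04 or less. With 3 pools a group and no detection calls, changes of the dim genes are not well resolved.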

Other observations

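*Spink3*, the trypsin inhibitor of the pancreas, had no row under that symbol. The array carries its current symbol *Spink1*, a row that lay outside the 39 names and was looked up after the other values had been seen. It measured 4.46, 4.33 and 4.42 in the mutant pools, against 5.75, 6.48 and 7.01 in the control pools. The groups were far apart although the control pools were spread, with a change of -2.01 ± 0.25 (SE; limma, adjusted p = 0.000439), or 4.03-fold. By its control mean of 6.41 the gene would count as off, a word that here does not mean absence of RNA.

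*Prss1*, cationic trypsinogen, was found only in 2 rows that name it together with *Prss3* and 2 predicted genes, so that neither row can be given to 1 gene. The first measured 5.58, 5.66 and 5.35 in the mutant pools, against 5.93, 6.77 and 5.88 in the control pools, and the other 4.68, 4.97 and 4.596 in the mutant pools, against 5.15, 6.01 and 5.03 in the control pools. In both, every mutant pool lay below every control pool and control replicate 2 was the highest. Their differences of -0.66 and -0.65 were not tested.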
